A study of Rattus norvegicus with 20 samples.

Results

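The 4 genes described here are the myogenic regulatory factors Myod1, Myog and Myf6 and the growth factor gene Mstn, which encodes myostatin. They were chosen by Ensembl identifier from the 32883 genes of the deposited table: ENSRNOG00000011306 (Myod1), ENSRNOG00000030743 (Myog), ENSRNOG00000004878 (Myf6) and ENSRNOG00000021294 (Mstn). The names came with the list of members. The deposited table holds identifiers only, and the gene table used here pairs none of them with a symbol. Messenger RNA was measured in 10 libraries of gastrocnemius, a mixed calf muscle, and in 10 libraries of abdominal white adipose tissue. All 20 samples came from Fischer 344 x Brown Norway rats aged 8 months, for which the labels give no treatment or genotype beyond the strain, and libraries with the same number came from the same animal. Sexes were not compared, since every label says male although the design text counts 5 females among the animals. The labels do not say which portion of the gastrocnemius was taken.

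The myogenic regulatory factors are basic helix-loop-helix proteins that pair with E proteins, bind E-box motifs and turn on genes of the muscle programme. Myod1 commits cells to the muscle lineage, Myog drives their terminal differentiation into fibres, and Myf6, also called MRF4, is the family member best known for its transcripts in adult fibres. In rat hindlimb muscle, Myod1 transcripts are known to be more abundant in fast fibres and Myog transcripts in slow fibres. Myostatin is a secreted member of the transforming growth factor beta family that is made by muscle fibres and restrains muscle growth through activin type II receptors and Smad proteins.

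Promoter sequences are shown for Myog and Myf6, the 2 of the 4 genes with an entry in the promoter set used here. Both carry the E-box motif to which their own protein family binds. The sequences are from RefSeq and are the 250 bases before the annotated start, written 5′ to 3′ on the strand of the gene. They are on build GRCr8, whereas the submitters' processing notes name rn6. Capitals mark E-boxes (CANNTG) and matches to the MEF2 motif in the spelling YTAWWWWTAR. Here Y stands for C or T, W for A or T and R for A or G.
Myog, chr13:48297226-48297475, plus strand: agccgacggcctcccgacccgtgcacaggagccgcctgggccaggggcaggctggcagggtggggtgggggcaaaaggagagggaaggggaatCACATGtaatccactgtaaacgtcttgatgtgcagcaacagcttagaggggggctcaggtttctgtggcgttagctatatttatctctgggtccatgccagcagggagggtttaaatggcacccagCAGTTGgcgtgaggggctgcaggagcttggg
Myf6, chr7:44701314-44701563, minus strand: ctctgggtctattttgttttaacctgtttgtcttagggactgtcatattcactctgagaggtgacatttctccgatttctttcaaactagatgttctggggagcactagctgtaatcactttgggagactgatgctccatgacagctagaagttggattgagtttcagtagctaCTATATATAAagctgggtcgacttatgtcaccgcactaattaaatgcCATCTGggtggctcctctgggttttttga

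The Myog window holds 2 E-boxes, CACATG at 157 to 152 bases and CAGTTG at 31 to 26 bases before the start. It holds no match to the MEF2 spelling searched, but its ctatatttat differs from that spelling in the last base alone. Other spellings were not searched, so a site written otherwise would be missed. The Myf6 window holds 1 E-box, CATCTG, at 29 to 24 bases before the start, and 1 match to the MEF2 motif at 76 to 67 bases before the start. This match overlaps a TATAAA at 71 to 66 bases. Both strands were searched. Among 33469 promoter windows of the same length, 65.5% held at least 1 E-box, 30.8% at least 2, 2.96% a MEF2 match and 12.9% a TATAAA. E-boxes of this loose spelling are thus common in promoters of all kinds, and a match is not evidence of binding.

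Total counts per library were 8446548 to 20141701 in muscle and 11067641 to 25904168 in adipose tissue. Muscle library 2 stands apart from the other muscle libraries and adipose libraries 1, 3 and 5 hold more muscle transcripts than the rest, so results that rest on them are given with and without them. Levels are in CPM, that is, read counts per 1000000 reads of the library, scaled by trimmed-mean (TMM) factors. They are not corrected for gene length, and therefore the levels of the 4 genes are not compared with each other. Where other genes are matched, chosen or ranked by CPM, gene length enters that level too. In whole tissue, fewer cells of a type and less RNA per cell cannot be told apart. The treatment of strand and of reads that fit several genes is not given in the sources used here.

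Each of the 4 genes was higher in muscle than in adipose tissue in 10 of 10 animals. Myod1 was at 11.7 CPM in its lowest muscle library, at a median of 103 CPM and at 131 CPM in the highest, against a lowest and a median of 0 CPM and a highest of 1.80 CPM in adipose tissue. The tissues did not overlap, although the lowest muscle value, in library 2, stood far under the other 9, which began at 67.3 CPM. Its mean was 94.0 ± 34.6 CPM in muscle and 0.229 ± 0.565 CPM in adipose tissue (SD, n = 10 each), with 9611.5 reads in all muscle libraries and 35.75 in all adipose libraries. On the log2 scale muscle was higher by 9.12 ± 0.73 (estimate and SE from edgeR's quasi-likelihood test, with a p of 1.39e-10 after Benjamini-Hochberg adjustment).

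Myog, the differentiation factor, ranged in muscle from 9.54 CPM through a median of 19.7 CPM to 65.5 CPM, against 0, 0.0415 and 0.824 CPM in adipose tissue. The highest muscle value came from library 2, in which Myod1 was lowest, and the second highest, 41.1 CPM, from library 8. Animals 6, 9 and 10 had the lowest muscle values, all between 9.54 and 9.78 CPM. Its mean was 24.2 ± 17.3 CPM in muscle and 0.129 ± 0.259 CPM in adipose tissue (SD, n = 10 each), and muscle was higher by 7.98 ± 0.65 on the log2 scale (SE, edgeR, adjusted p = 2.16e-10).

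Myf6 was the most even of the 4 genes between animals. Its muscle values were 143 CPM at the lowest, 152 CPM at the median and 239 CPM at the highest, against 0, 0.0772 and 1.50 CPM in adipose tissue. The tissues were far apart, and within muscle libraries 7 and 2, at 239 and 227 CPM, stood above the remaining 8, which reached at most 169 CPM. The mean was 169 ± 34.8 CPM in muscle and 0.315 ± 0.491 CPM in adipose tissue (SD, n = 10 each), and muscle was higher by 9.16 ± 0.55 on the log2 scale (SE, edgeR, adjusted p = 1.30e-12).

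Mstn, the gene of the secreted growth inhibitor, ranged in muscle from 0.568 CPM through a median of 28.8 CPM to 39.7 CPM, a 69.9-fold range that narrowed to 4.42-fold without library 2, against 0, 0.0229 and 0.300 CPM in adipose tissue. Library 2 held 7 reads of it, while the other 9 muscle libraries held 105.89 to 426.92 reads, or 8.98 to 39.7 CPM. By TMM-scaled levels the tissues did not overlap. By library totals alone they did, since muscle library 2 stood at 0.425 CPM, against 0.504 and 0.449 CPM in adipose libraries 4 and 7, which also held 7 reads each. The mean was 24.4 ± 13.3 CPM in muscle and 0.0796 ± 0.113 CPM in adipose tissue (SD, n = 10 each).

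**Figure D1:**
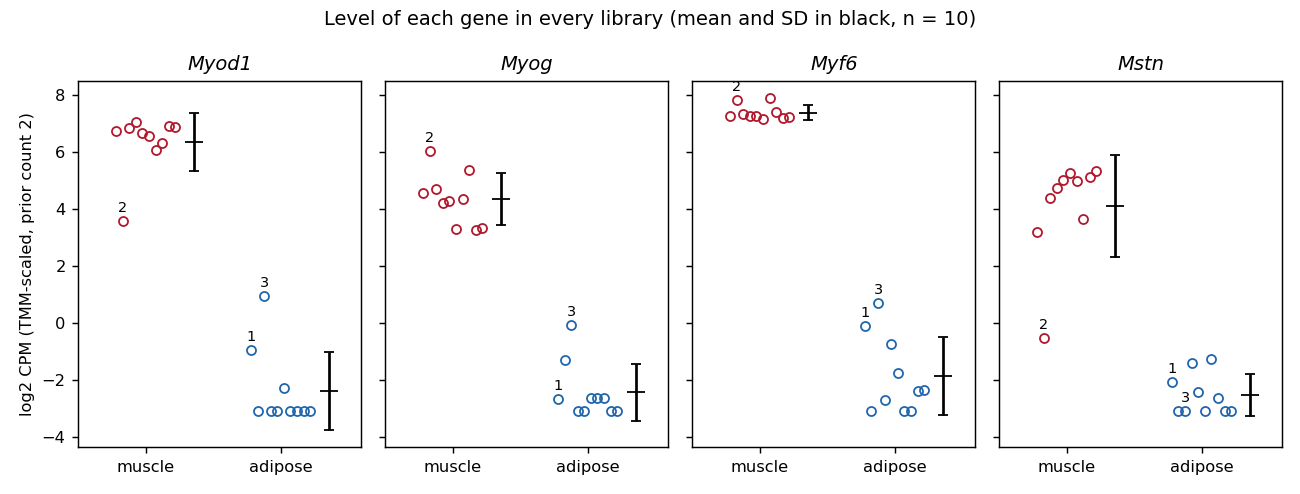
Log2 CPM (TMM-scaled, prior count 2) of each gene on the vertical axis in the 10 muscle and the 10 adipose libraries, 1 circle per library in the order of the animals, with the mean and SD in black. Numbers mark muscle library 2 and adipose libraries 1 and 3, and circles on the bottom line of adipose tissue are libraries with 0 reads. Muscle library 2 is lowest for Myod1 and Mstn and highest for Myog.

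Of the 4 genes, 3 passed the filter on low counts. Mstn did not, because it needed 10 libraries over the minimum and muscle library 2 fell under it. In the fit without a filter muscle was higher by 8.05 ± 0.71 on the log2 scale (SE, edgeR, adjusted p = 2.41e-09), and without muscle library 2 it passed the filter with a log2 fold change of 8.21 (edgeR adjusted p = 1.55e-12). Differences between these tissues were the rule: 79.8% of 13806 tested genes differed in either direction, 37.6% were higher in muscle and 21.0% were higher in muscle with no overlap of libraries. In the fit without a filter 26.6% of 23140 genes were higher in muscle. A call is therefore little to go by, and the size of the difference says more. A log2 fold change at least as large as that of Myod1 was found for 96 of the 13806 genes (0.695%), as that of Myf6 for 90 (0.652%) and as that of Myog for 187 (1.35%). For Mstn it was 205 of 23140 genes (0.886%).

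Within animals, the mean difference of log2 CPM between muscle and adipose tissue was 8.76 ± 1.50 for Myod1, 6.78 ± 0.93 for Myog, 9.25 ± 1.50 for Myf6 and 6.64 ± 1.80 for Mstn (SD, n = 10). Adipose libraries with 0 reads, 7 for Myod1, 4 for Myog, 3 for Myf6 and 5 for Mstn, sit at a floor set by the prior count of 2. The size and SD of these differences therefore depend in part on that prior count. The smallest difference in any animal was 2.57, for Mstn in animal 2. Each of the 4 differences gave p = 0.00195 when the signs of the 10 animals were flipped in all ways (exact permutation test, two-sided), the smallest p that 10 animals allow. With library totals in place of TMM factors the log2 fold changes were 7.84 for Myod1, 6.76 for Myog, 7.91 for Myf6 and 6.73 for Mstn, and that scaling moved the median of all tested genes to -1.39, against -0.086 with TMM.

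The transcripts in adipose tissue were few and unevenly spread over the libraries. Adipose library 3 held 23.5 reads of Myod1, 11 of Myog and 20 of Myf6, and library 1 held 10.25, 1.33 and 20.5 reads of these genes. Library 5, with the largest adipose total count (25904168), held 20 reads of Myf6 but 0 of Myod1 and of Myog. By reads not scaled for library totals, libraries 1, 3 and 5 together held 94.4% of all adipose reads of Myod1. They held 87.7% of those of Myf6 and 60.6% of those of Myog, but 28.0% of those of Mstn. Mstn thus differed by its 7 reads each in libraries 4 and 7. It had 0 reads in library 3, which allows up to 0.920% of its muscle mean.

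For comparison, 168 genes nearly restricted to muscle, not counting the 4 described here, were followed in the same libraries. Their muscle median was at least 20 reads per 1000000 and exceeded that of adipose tissue 100 times or more. Of the 4 genes only 2, Myod1 and Myf6, met this rule, since the muscle medians of Myog and Mstn by library totals were under 20. For Myog and Mstn, 1 read was 0.190% and 0.188% of the muscle mean in adipose library 8, so they are not compared like for like. In adipose libraries 3, 1 and 5 the median level of the 168 genes was 0.811%, 0.525% and 0.169% of the muscle mean, and 0.0100% to 0.0487% in the other 7. Myf6 stood at 0.887%, 0.476% and 0.280% of its muscle mean in libraries 3, 1 and 5, close to these medians. Myod1 stood at 1.91% in library 3 and 0.428% in library 1, with 0 reads in library 5, which allows up to 0.0755%. Myog stood at 3.40% in library 3 and, from 5 reads, at 1.19% in library 2. Mstn stood at 1.06% in library 4 and 1.23% in library 7, where the restricted genes were at 0.0443% and 0.0244%. In libraries 1 and 5 Mstn stood at 0.494% and 0.291%, from 3 and 2.83 reads, near the medians there. Its 0 reads in library 3 allow up to 0.920%, which does not set it apart from the median of 0.811%. The part of muscle RNA in these adipose values was not tested.

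Without adipose libraries 1, 3 and 5 the log2 fold change was 8.75 for Myog, 11.45 for Myf6 and 8.02 for Mstn. For Myod1 only 2 reads were then left in adipose tissue, and the muscle mean was 7685 times the adipose level, with a 95% counting interval of 2128 to 63461 times (exact Poisson). The folds of Myod1 and Myf6 thus depended on these adipose libraries, while that of Mstn moved little.

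**Figure D2:**
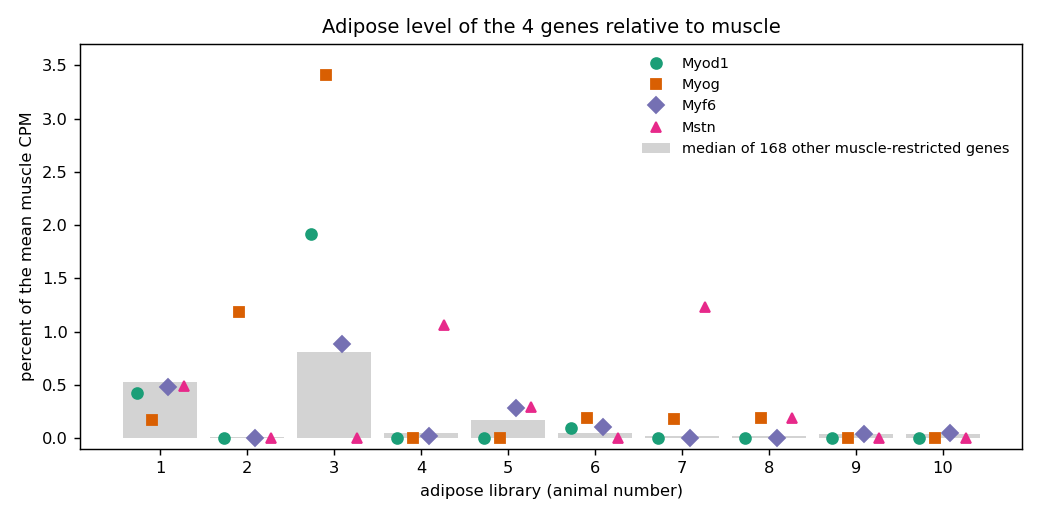
Level of each gene in every adipose library (horizontal axis, animal number) as a percent of its mean CPM in muscle. Grey bars give the median of 168 muscle-restricted genes outside the 4. Library 3 holds the highest values of Myod1, Myog and Myf6, while the highest values of Mstn are in libraries 4 and 7.

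In muscle, 3 of the 4 genes varied widely between animals. The SD of log2 CPM over the 10 muscle libraries was 1.02 for Myod1, 0.91 for Myog, 0.27 for Myf6 and 1.78 for Mstn. The counting error expected at their mean counts was far smaller, at 0.047 for Myod1, 0.090 for Myog, 0.035 for Myf6 and 0.093 for Mstn. For Mstn in muscle library 2, with 7 reads, the counting error is larger than at the mean count. The tested genes all passed the filter on low counts, which Mstn did not, so genes that fall as Mstn does may be missing from them. Each SD was set beside those of tested genes within 0.5 log2 CPM of the same mean level. Of such genes, 98.0% had a smaller SD than Myod1, 97.5% a smaller one than Myog, 99.6% a smaller one than Mstn and 60.3% a smaller one than Myf6. Without muscle library 2 the SDs were 0.30 for Myod1, 0.72 for Myog, 0.23 for Myf6 and 0.75 for Mstn, larger than in 79.5%, 96.8%, 64.1% and 97.5% of genes of like level. The SDs of Myod1 and Mstn thus depended strongly on that library. Among the other 9 animals Myod1 ranged 1.95-fold, Myog 4.31-fold, Myf6 1.67-fold and Mstn 4.42-fold.

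**Figure D3:**
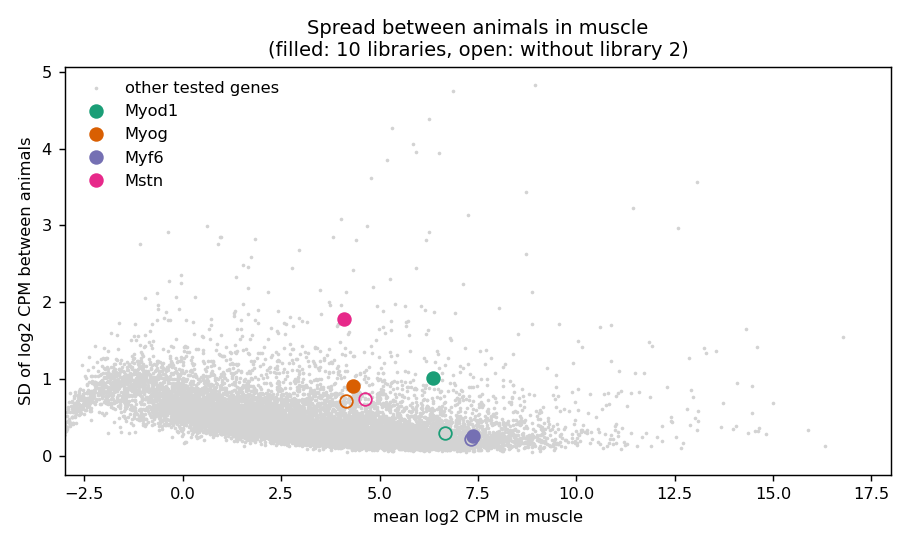
SD of log2 CPM between animals against mean log2 CPM in muscle, with tested genes in grey and the 4 genes in colour (filled: 10 libraries, open: without library 2). Myod1 drops into the bulk of genes without library 2, Myog and Mstn stay near the upper edge, and Myf6 lies within the bulk.

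Muscle library 2 differed from the other 9 in opposite directions for these genes. On the log2 scale, its deviation from the mean of the other 9 was -5.17 for Mstn and -3.10 for Myod1. Its Myog level lay 1.90 above and its Myf6 level 0.50 above that mean. Of 9331 genes that averaged 5 CPM or more in muscle, 20 deviated at least as far down as Mstn in this library and 87 as far down as Myod1, while 218 deviated as far up as Myog and 1853 as far up as Myf6. The gene with the highest mean CPM in muscle, ENSRNOG00000049695, for which no name is given, was also low there. It had 5625 CPM in library 2, 91981 CPM in library 8 and 141273 to 192858 CPM in the other 8. The total of library 2 was 16480287 counts. The median level of 154 genes nearly restricted to adipose tissue was 0.467% of their adipose mean in muscle library 2 and 0.176% to 0.378% in the other muscle libraries, by library totals, and the part of this in the result was not tested.

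The ratio of 2 genes was compared between libraries, where gene length is a constant, and gave an order of the animals; its size in a library says nothing of which gene is the more abundant. The log2 ratio of Myog to Mstn was 6.59 in library 2, 1.72 in library 8, 1.36 in library 1 and 0.31 in library 3. It lay between -0.74 and -0.54 in libraries 4, 5 and 7, and between -2.01 and -1.84 in libraries 6, 9 and 10. Library 2 lay beyond the span of the rest, and among the other 9 the ratio had an SD of 1.38 on the log2 scale. The log2 ratio of Myod1 to Myog was -2.48 in library 2, 0.96 in library 8 and 1.74 to 3.63 in the other 8. Library 2 held 144.1 reads of Myod1 and 807.74 reads of Myog, so this ratio rests on ample counts of both genes.

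**Figure D4:**
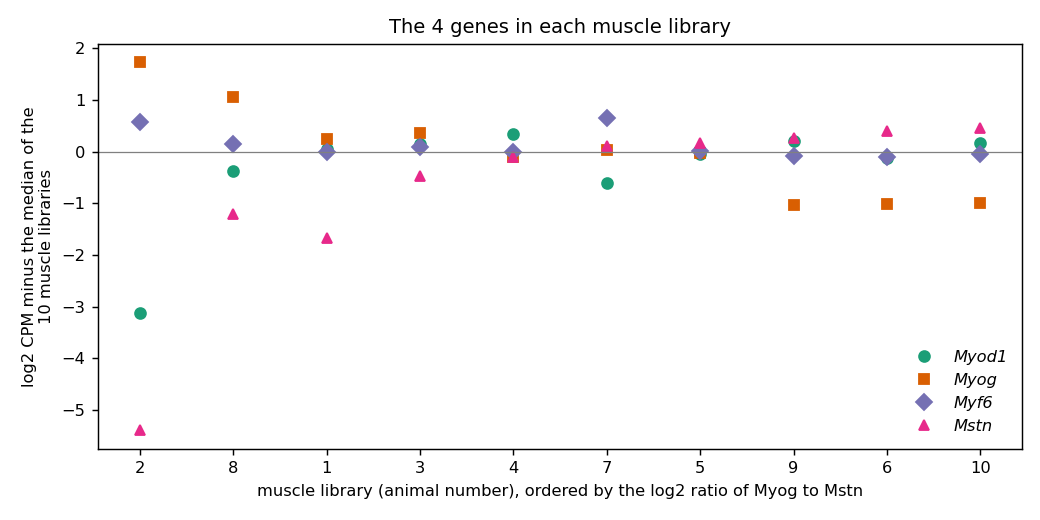
Log2 CPM of each gene minus its median over the 10 muscle libraries, on the vertical axis, with the libraries ordered along the horizontal axis by the log2 ratio of Myog to Mstn. Since the order is set by Myog and Mstn themselves, their opposite trends along it are partly built in. Myod1 departs most in library 2, and Myf6 is high in libraries 2 and 7.

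Across the 10 muscle libraries, the 6 pairs of genes were compared by correlation of log2 CPM, with two-sided permutation tests and Benjamini-Hochberg adjustment over the 6 pairs. Animals with more Myog had less Mstn: r = -0.83 (permutation p = 0.00072, adjusted p = 0.00432) and rho = -0.88 (permutation p = 0.00163, adjusted p = 0.00978). Without library 2 the relation was r = -0.77 (exact permutation p = 0.0143, adjusted p = 0.0451). With libraries 2 and 8 left out, the 2 farthest from the median of Myog, r was -0.68 (exact permutation p = 0.0306, adjusted p = 0.184), so that passing the adjustment rests on these libraries.

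Myog and Myf6 were ordered alike. Their rho was 0.84 (permutation p = 0.00407, adjusted p = 0.0122), and 0.85 without library 2 (exact permutation p = 0.00607, adjusted p = 0.0248). Pearson's r was 0.64 and did not pass the adjustment (permutation p = 0.0481, adjusted p = 0.0577). Without library 2 it fell to 0.41 (exact permutation p = 0.305, adjusted p = 0.470). Library 7 has the highest Myf6 level, a middle Myog level and the lowest total count, and r was 0.88 without it (exact permutation p = 4.13e-05, adjusted p = 0.000248). With libraries 2 and 8 left out r was 0.43 (exact permutation p = 0.335).

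Myod1 and Myf6 ran in opposite directions, with r = -0.75 (permutation p = 0.0166, adjusted p = 0.0334) and rho = -0.66 (permutation p = 0.0445, adjusted p = 0.0667). Without library 2 r was -0.79 (exact permutation p = 0.0150, adjusted p = 0.0451), and without both libraries 2 and 7 it was -0.46 (exact permutation p = 0.255), so that the relation rests on these libraries. Myod1 and Myog had r = -0.72 (permutation p = 0.0167, adjusted p = 0.0334) and rho = -0.60 (permutation p = 0.0752, adjusted p = 0.0902), but r = -0.38 without library 2 (exact permutation p = 0.313), and -0.45 without libraries 2 and 7 (exact permutation p = 0.265).

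The largest r of the 6, 0.89 between Myod1 and Mstn, rested on 1 library. It did not pass the adjustment (permutation p = 0.0363, adjusted p = 0.0545), rho was 0.39 (permutation p = 0.265, adjusted p = 0.265), and without library 2 r was 0.11 (exact permutation p = 0.786). Without libraries 2 and 7 it was 0.35 (exact permutation p = 0.400). Myf6 and Mstn had r = -0.56 (permutation p = 0.104, adjusted p = 0.104) and rho = -0.66 (permutation p = 0.0440, adjusted p = 0.0667). Their r was -0.04 without library 2 (exact permutation p = 0.912) and -0.62 without libraries 7 and 2 (exact permutation p = 0.0895).

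**Figure D5:**
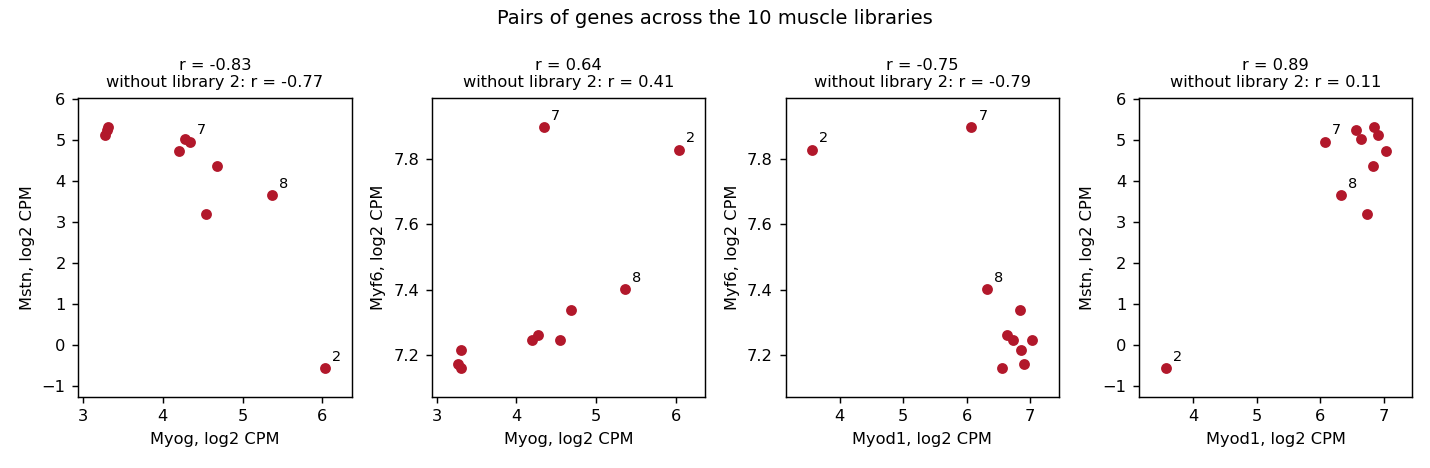
Log2 CPM of 1 gene against another across the 10 muscle libraries for 4 of the 6 pairs, 1 point per library, with libraries 2, 7 and 8 numbered and r given with and without library 2. Myog and Mstn run in opposite directions in the other 9 libraries (r = -0.77), whereas for Myod1 and Mstn the slope rests on library 2 alone.

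None of the 4 genes passed a test of its level against the log2 total count of the muscle libraries. The r values were 0.09 for Myod1 (permutation p = 0.704, adjusted p = 0.939), -0.02 for Myog (permutation p = 0.953, adjusted p = 0.953), -0.64 for Myf6 (permutation p = 0.0686, adjusted p = 0.274) and -0.17 for Mstn (permutation p = 0.514, adjusted p = 0.939). The rho values were -0.08, 0.09, -0.35 and -0.04 in the same order of genes, each with an adjusted permutation p of 0.917. Without libraries 6 and 7, the 2 farthest from the median total, r lay between -0.22 and 0.24 for the 4 genes. The labels give no batch or date.

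The genes whose levels ran most closely with each member were looked up among 9330 other genes that averaged 5 CPM or more in muscle, by Pearson's r over the 10 muscle libraries. None of them has a name in the files. The nearest to Myod1 was ENSRNOG00000030871 (r = 0.99, and 0.95 without library 2), and the nearest to Mstn was ENSRNOG00000003479 (r = 0.99, and 0.91 without library 2). The nearest to Myog was ENSRNOG00000014454 (r = 0.96, and 0.94 without library 2) and the nearest to Myf6 was ENSRNOG00000002159 (r = 0.97, and 0.96 without library 2). An r of at least 0.9 in either direction was found with 5.11% of the genes for Myod1, 0.879% for Myog, 0.547% for Myf6 and 4.01% for Mstn. Without library 2 these shares were 0.386%, 0.332%, 0.407% and 0.397% in the same order, so that the numbers of genes running with Myod1 and Mstn depended on that library.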

How the data were processed

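Messenger RNA libraries were made from 300 ng of total RNA, extracted from 30 mg (adipose tissue) or 10 mg (muscle) samples, per the labels' protocols. Tools named without role or version in the submitters' processing notes are bcl2fastq, STAR and featureCounts, beside the build rn6. The authors deposited expected counts per gene and library, which are not normalised and often not whole (25.3% of values above 0 were whole within 0.005), and these were rounded before testing. Muscle was compared with adipose tissue in R 4.3.3 with edgeR 4.0.16: filterByExpr, TMM factors, the robust quasi-likelihood test, and Benjamini-Hochberg adjustment over all tested genes at 0.05. The main fit held no term for the animal, although both tissues came from the same animals. The SE is the log2 fold change divided by the square root of F. Log2 CPM used a prior count of 2. Permutation tests used 100000 resamples, or all orders with fewer than 10 libraries. Limits for a count of 0 rest on 3 reads, and they and intervals cover counting error only. Alternatives used limma 3.58.1, DESeq2 1.42.0, other scalings, other filters, an animal block and left-out libraries; those without muscle library 7, DESeq2 without replaced counts and the refiltered Mstn fit were chosen after seeing the data, as was the comparison with other muscle-restricted genes.

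The pairing rests on the labels, which give same-numbered libraries to the same animal. Over 8295 genes, deviations of same-animal libraries had correlations of -0.22 to 0.42, with a median of 0.12, against -0.03 between animals. The members and lists were chosen with earlier results of these data known. The named genes are the members and the nearest gene to each by r, at most 1 identifier a member; ENSRNOG00000049695 was named after its values were seen. With 0 identifiers matched to symbols, 7 lists of muscle, satellite cell, myostatin pathway and adipose genes, including the tissue markers, could not be run. The fit was tested on simulated data with muscle mean levels in both tissues and fold changes far smaller than those of the members. That test therefore does not cover the range of the members.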

Additional observations from a re-analysis of the deposited data

Results flagged for a closer look

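In 14 groups of 10 libraries the outermost values were set against the next ones. The groups were the log2 CPM of each gene in each tissue and the 6 log2 ratios in muscle. In 6 cases the gap exceeded Dixon's 95% critical value, relative to the range, where chance gives about 1 in 20 groups, and all 6 concern muscle library 2, so they are not independent. Its log2 CPM was 3.56 for Myod1, next to 6.08 in the nearest library, and -0.55 for Mstn, next to 3.19. Its log2 ratio of Myod1 to Myog was -2.48, next to 0.96, and that of Myod1 to Myf6 was -4.27, next to -1.82. Its log2 ratio of Myog to Mstn was 6.59, next to 1.72, and that of Myf6 to Mstn was 8.38, next to 4.06. No adipose library exceeded the value for any of the 4 genes, but adipose library 3 came just under it for Myod1, with a log2 CPM of 0.94 next to -0.95 in library 1.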

How the results depend on the processing

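The log2 fold changes kept their direction and stayed past the threshold in each alternative in which they were tested (20 for Myod1, Myog and Myf6, and 19 for Mstn), with ranges of 7.84 to 12.23 for Myod1, 6.76 to 9.03 for Myog, 7.91 to 11.45 for Myf6 and 6.73 to 8.44 for Mstn. With each animal left out in turn they were 8.86 to 10.65 for Myod1, 7.76 to 9.03 for Myog, 8.95 to 9.72 for Myf6 and 7.81 to 8.44 for Mstn. With the animal as a replicate block they were 9.55, 8.04, 9.40 and 8.13 for Myod1, Myog, Myf6 and Mstn, and the block changed no call. The edgeR adjusted p values with the block were 1.99e-08, 5.77e-09, 9.67e-09 and 4.53e-09 in the same order, larger than without it. Under the stricter filter Mstn was not tested. With TMM factors 5187 genes were called higher in muscle, and with library totals 1704. The mean adipose level of Mstn was 0.326% of muscle, and 0.879% with library totals, which lower muscle relative to adipose levels.

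The 6 correlations changed their side of the threshold in 12 of 36 alternatives. Myod1 with Myog fell below the threshold as rho (-0.60), without library 2 (-0.38) and without the 2 farthest libraries (-0.45); so did Myod1 with Myf6 as rho (-0.66) and without the 2 farthest (-0.46), and Myog with Mstn without the 2 farthest (-0.68). Myod1 with Mstn passed with library totals (0.88) and without library 7 (0.93), Myog with Myf6 with library totals (0.75), as rho (0.84) and without library 7 (0.88), and Myf6 with Mstn without library 7 (-0.94). Depth limits all adipose levels, which rest on at most 23.5 reads, and the level of Mstn in muscle library 2, which rests on 7. The cause of these changes was not tested.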
